A study of Homo sapiens with 12 samples.

Results

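H69 cells, human bile duct epithelial cells (cholangiocytes) kept growing by a viral large T antigen, were compared after treatment with TGFβ alone and after vehicle alone. The members are the 3 libraries labelled TGFb and the 3 labelled V, chosen by those labels, out of 12 libraries in the series. Of 62703 genes in the table, 21567 had enough counts to be tested, and all of them were fitted. The cells had spent 6 h without serum and were then treated overnight in medium without serum. TGFβ was given at 10 ng/mL, and neither of these groups received Aramchol, the second compound of the series. Since H69 is 1 immortalised line and the labels do not say that replicates were separate cultures, a p-value covers just the scatter among the sequenced libraries and may reflect technical variation alone.

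TGFβ is a secreted dimer that is held in a latent complex in the matrix until it is released. It binds a pair of receptor kinases, which phosphorylate SMAD2 and SMAD3, and these join SMAD4 and act on genes in the nucleus. In epithelium the pathway is known for arresting growth, loosening cell junctions and raising matrix production, and in bile ducts it is studied for its part in scarring around them.

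Levels are given as CPM, read counts scaled to a common library total after TMM normalisation, in the order of replicates 1, 2 and 3. Fold changes are log2 values with their standard error (SE) from edgeR's quasi-likelihood test over all 12 libraries. "Passed" means a Benjamini-Hochberg adjusted p under 0.05 over all 21567 genes. Unless stated otherwise, the TGFβ and vehicle values of a gene named as having risen or fallen did not overlap. The 6 libraries held 58360888 to 68053666 counts, of which 8.26 to 9.45% were mitochondrially encoded. On a principal component analysis of these 6, the first component (68.8% of the variance) separated TGFβ from vehicle. The second (10.7%) set Vehicle replicate 3, at -42.7, apart from Vehicle replicates 1 and 2, at 22.9 and 21.1. TGFb replicate 3 lay on the same side, at -17.9, and TGFb replicates 1 and 2 at 7.69 and 8.88. Counts without Vehicle replicate 3 are therefore given beside the totals. Vehicle replicates 1 and 2 differed by more than counting noise, so no library was a copy of another.

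The cell type was checked against marker genes. KRT8 and KRT18 were present in every library, but the cholangiocyte markers SPP1, CFTR and SCTR were below the filter, with at most 10 counts in any of the 6 libraries. Sums are over the markers of a list that passed the filter, which for cholangiocytes were 12 and summed to 1217 to 2047 CPM in vehicle and 2435 to 2650 CPM in TGFβ. For hepatocytes ALB, APOA1, TTR and CYP3A4 were below the filter, but 8 of 12 markers passed it and summed to 172 to 238 CPM in vehicle and 171 to 179 in TGFβ. SERPINA1 (78.6, 79.5 and 62.6 CPM in vehicle) and FGG (52.6, 62.2 and 24.98 CPM in vehicle) were among the 8. For leukocytes PTPRC, CD3E, CD68, LYZ, FCGR3A and NKG7 were below the filter. Leukocyte markers summed to 28.95 to 35.6 CPM in vehicle and 25.2 to 28.6 in TGFβ. Fibroblast markers summed to 158 to 207 CPM in vehicle and 490 to 608 in TGFβ, and keratinocyte markers to 75.4 to 123 and 679 to 749. Few genes carried these sums: KRT17 alone was at 642, 604 and 559 CPM with TGFβ, and PDGFRB and COL1A2 at 185, 200.1 and 229 and 139.6, 139 and 199.5 CPM. Of 12 fibroblast markers 6 rose and 3 fell, the last being PDGFRA, RGS5 and LRAT. The call of RGS5 was lost under some other settings. Single markers of other types rose within these lists: CSF1R, a receptor of macrophages, from 0.745, 0.642 and 0.547 to 19.5, 21.2 and 22.3 CPM. It was the 1 leukocyte marker of 3 tested that rose, and 1 fell, CD14 (log2 -2.51). FAP, a protease of activated fibroblasts, went from 0.527, 0.906 and 0.302 to 13.3, 13.3 and 13.97 CPM. What part other cell types have in the results was not tested.

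In all, 37.0% of tested genes passed (7978 genes), 18.9% higher (4070 genes) and 18.1% lower (3908 genes). Without Vehicle replicate 3, 3891 genes were higher and 3734 lower. Most differences were small: the median fold among genes that passed was 1.47, and the smallest 1.09. At least 2-fold, 1321 genes were higher (6.13% of tested genes) and 1015 lower (4.71%). At least 4-fold there were 571 and 282, at least 8-fold 286 and 94, and at least 16-fold 149 and 32. These counts depend on genes near 0 in one group, which could pass the filter only through other groups. Without the genes under 0.1 CPM in vehicle, 1042 were at least 2-fold higher and 1015 lower. Without those under 0.1 CPM in either group, 1042 were higher and 823 lower at 2-fold, and 128 and 35 at 8-fold. For 46.6% of tested genes all 3 TGFβ libraries lay on one side of all 3 controls.

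TPM values, in which counts are scaled by gene length and then to the same total in each library, allow genes to be compared with each other. The 1321 genes at least 2-fold higher, chosen by these same values, took 1.92, 1.86 and 1.65% of transcripts in the vehicle libraries and 6.38, 6.50 and 6.67% with TGFβ. The 1015 at least 2-fold lower took 1.248, 1.31 and 1.11% and then 0.387, 0.399 and 0.374%. TGFBI, a secreted matrix protein, moved from rank 275 to rank 7 by mean TPM among nuclear protein coding genes. SAA1, an acute phase protein, went the other way, from rank 61 to rank 577. In bulk RNA, fewer cells of a type and less RNA per cell cannot be told apart.

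**Figure D1:**
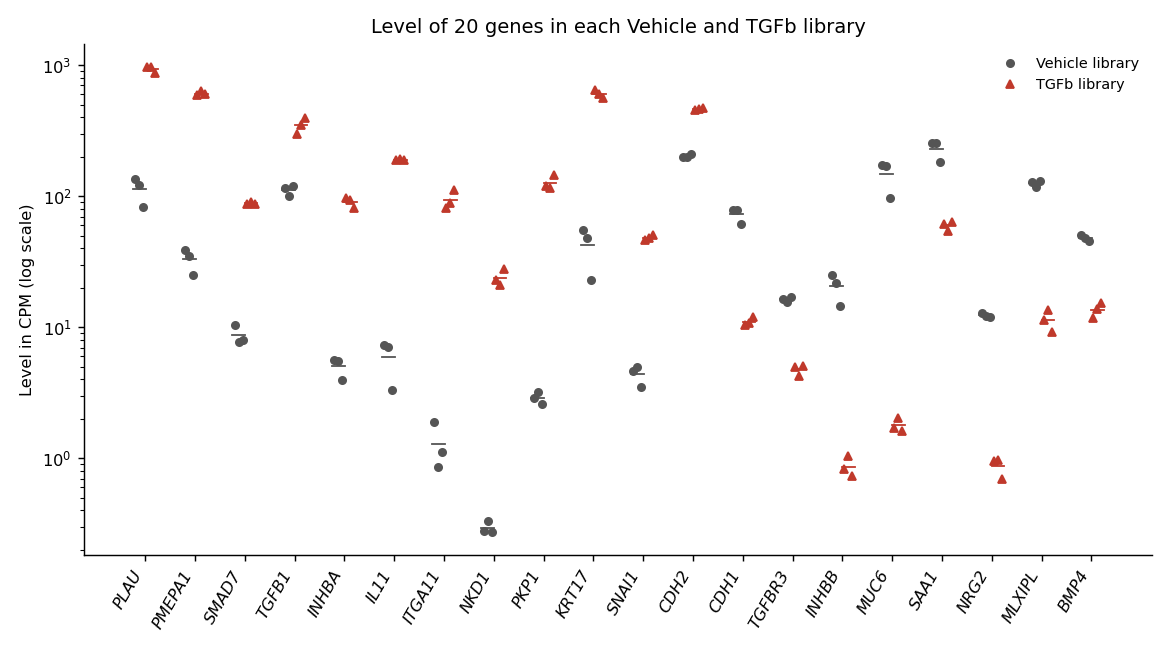
Level in CPM (log axis) of 20 genes in each library; circles are the 3 Vehicle libraries, triangles the 3 TGFb libraries, and short lines their means. For all 20 the groups do not overlap, which the naming rule asked of most named genes. Vehicle replicate 3 is the lowest vehicle library for most of the 20, among them KRT17, IL11 and MUC6. That library is the lowest of the 3 for 60.8% of genes at least 2-fold higher and 57.5% of those at least 2-fold lower. Over all tested genes the share is 43.1%.

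The TGFβ pathway's own genes moved at every level of the cascade. Of 13 tested genes for ligands and for their latency and release, 9 rose and 3 fell (median log2 fold change 1.05, against -0.03 over all tested genes). TGFB1, the gene of the cytokine itself, was at 115, 100.2 and 120.1 CPM in vehicle and 299, 348 and 394 CPM with TGFβ. All 3 treated libraries were above all 3 controls, a rise of 1.64 (SE 0.11). LTBP2, of the family of latent TGFβ binding proteins, rose from 138, 125 and 69.8 to 835, 861 and 795 CPM, with Vehicle replicate 3 the lowest. Release from the latent complex can use integrins, and the 2 β subunits known for it went in opposite directions. ITGB6 rose from 0.279, 0.329 and 0.230 to 1.98, 2.81 and 2.03 CPM. ITGB8 fell from 37.1, 36.2 and 27.2 to 9.85, 8.46 and 7.63 CPM. NRROS, which holds latent TGFβ on some cells, fell by 1.34 (SE 0.18). THBS1, a matrix protein that can release the cytokine, rose by 1.91 (SE 0.17).

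Among 11 tested receptors of the superfamily, 4 rose and 3 fell. The receptor kinases that TGFβ uses moved apart. TGFBR1 rose from 57.1, 59.9 and 62.3 to 104.6, 105.1 and 111 CPM. TGFBR2, which binds the ligand first, fell from 520.0, 524 and 336 to 278, 266 and 239 CPM. The coreceptors did so too. TGFBR3, which presents the ligand, fell from 16.3, 15.5 and 17.1 to 5.02, 4.27 and 5.07 CPM, and ENG (endoglin) rose from 13.3, 12.9 and 9.42 to 37.001, 39.1 and 39.1 CPM. None of these 4 genes had overlapping groups. BMPR2, a receptor for bone morphogenetic proteins, rose by 0.95 (SE 0.097).

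No gene of the 6 SMAD transducers rose. SMAD2 was slightly lower, at 119, 116 and 118 CPM against 138, 144 and 138 in vehicle. SMAD3 fell by 0.29 (SE 0.086) and SMAD1 by 0.33 (SE 0.12), but the call of SMAD3 was lost without Vehicle replicate 1, Vehicle replicate 2 or TGFb replicate 3, and that of SMAD1 without any 1 library but TGFb replicate 1 and with RLE scaling. SMAD4 did not pass, at 85.1, 85.4 and 100.2 CPM in vehicle and 84.1, 82.6 and 86.2 CPM with TGFβ (adjusted p = 0.233, edgeR). Of 11 feedback inhibitors, 9 rose and none fell, with a median of 1.34. SMAD7, which blocks the receptor, was at 87.96, 89.7 and 87.6 CPM against 10.5, 7.76 and 8.04, and PMEPA1, which holds SMADs back, at 589, 634 and 598 against 39.1, 34.7 and 24.9 CPM. LDLRAD4, a relative of PMEPA1 with the same role, was near the detection limit in vehicle, at 0.186, 0.0494 and 0.144 CPM, and reached 2.32, 2.16 and 2.63 CPM.

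Activin and BMP genes encode relatives of TGFβ and their partners. Of 17 tested, 12 rose and 3 fell. INHBA and INHBB each encode a β subunit of activins. INHBA was at 5.600, 5.55 and 3.93 CPM in vehicle and 96.7, 92.9 and 81.96 CPM with TGFβ, a rise of 4.17 (SE 0.16, adjusted p = 1.8e-11). INHBB was at 25.1, 21.8 and 14.6 and then 0.822, 1.04 and 0.727 CPM, with no overlap (log2 -4.56, SE 0.20, adjusted p = 8.85e-11). Per transcript length, INHBB stood at 22.3 ± 5.01 TPM and INHBA at 2.12 ± 0.313 TPM in vehicle, while with TGFβ they stood at 0.854 ± 0.156 and 34.7 ± 2.77 TPM (SD, n = 3). INHA, the inhibin subunit, also fell, by 0.91. Among BMP ligands, BMP6 rose from 1.57, 1.33 and 0.489 to 6.36, 6.605 and 3.43 CPM, BMP4 fell from 50.8, 48.1 and 45.6 to 11.9, 13.7 and 15.4 CPM, and the BMP antagonist NOG rose from 0.109, 0.148 and 0.129 to 1.09, 1.51 and 1.76 CPM.

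Matrix genes were raised broadly. Of 36 tested collagen chains 20 rose and 5 fell (3 without TGFb replicate 1 or 2), with a median of 1.03. COL6A3 rose from 3.23, 3.01 and 3.87 to 38.1, 38.1 and 63.6 CPM. COL1A2, the partner chain of COL1A1, went from 22.2, 22.6 and 9.62 to 139.6, 139 and 199.5 CPM. TGFb replicate 3 was the highest library for COL1A1, COL1A2 and COL6A3. Basement membrane chains went both ways, with COL4A6 lower by 0.48 (SE 0.071). Of 38 other matrix proteins 24 rose and 6 fell. TNC, a matrix protein of healing wounds, rose from 31.9, 28.98 and 18.3 to 645, 636 and 614 CPM. COMP, which binds collagen fibrils in cartilage, went from 0.0310, 0.0494 and 0.129 to 13.7, 16.3 and 23.7 CPM, a log2 change of 7.92 that was 8.73 without Vehicle replicate 3. Not all matrix genes followed. TNXB fell by 1.12 (SE 0.24), and HSPG2, which encodes the basement membrane proteoglycan perlecan, by 0.62 (SE 0.099).

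The enzymes that fold, trim and crosslink collagen rose with the chains. Of 32, 24 rose and 2 fell, with a median of 0.66. P4HA3, a prolyl hydroxylase subunit, rose from 1.54, 1.96 and 1.58 to 19.8, 18.4 and 17.5 CPM. LOX, which crosslinks collagen, went from 27.2, 28.1 and 30.4 to 126, 129 and 161 CPM. The propeptide proteases split. ADAMTS2, which trims procollagen, rose by 2.29 (SE 0.13), while its relative ADAMTS14 fell by 2.07 (SE 0.16) from 8.55, 8.597 and 8.06 to 1.86, 1.82 and 2.34 CPM. Of 25 genes of the COPII coat, which carries cargo out of the endoplasmic reticulum, and of its regulators, 17 rose and 3 fell (1 without Vehicle replicate 1 or 2 or TGFb replicate 2 or 3), none of them 2-fold. SEC24D, a cargo adaptor of that coat, rose by 0.94 (SE 0.051). Supply genes were mixed. Of 21 for proline, serine and glycine, 8 rose and 5 fell (2 without TGFb replicate 1 or Vehicle replicate 2, 3 without any 1 of Vehicle replicate 1, TGFb replicate 2 and TGFb replicate 3), with a median of 0.03. PYCR1, the last enzyme of proline synthesis, rose by 0.98, and SHMT1, which converts serine to glycine, and GLUL, which makes glutamine, fell by 0.41 and 0.41. The hyaluronan depolymerase CEMIP rose from 5.85, 5.68 and 3.14 to 108, 114 and 141 CPM.

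Proteolysis genes rose together with their inhibitors. Of 11 genes that control plasminogen and matrix breakdown, 7 rose and 1 fell. PLAU, a plasminogen activator, rose from 134, 123 and 83.3 to 965, 962 and 867 CPM. SERPINE2, an inhibitor of serine proteases, went from 16.9, 17.7 and 11.5 to 152, 149.8 and 141 CPM. TIMP3, an inhibitor of metalloproteinases, fell by 0.68 (SE 0.13). Of 15 tested matrix metalloproteinases 7 rose and 2 fell, but those that rose began low. MMP9 was at 0.279, 0.198 and 0.158 CPM in vehicle and 2.75, 2.68 and 1.98 CPM with TGFβ, while MMP24, which is bound to the membrane, fell from 46.4, 41.7 and 27.8 to 10.5, 11.1 and 9.96 CPM.

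Genes for holding on to matrix rose as well. Of 20 focal adhesion genes 13 rose and none fell, and of 22 contractile and actin bundle genes 15 rose and none fell. TNS1, which links integrins to actin, rose from 19.98, 18.7 and 14.2 to 195, 192 and 169 CPM, TAGLN, an actin binding protein of smooth muscle, from 13.7, 12.98 and 6.59 to 144, 146 and 121 CPM. CNN1, the muscle protein calponin, went from 2.96, 2.39 and 1.29 to 24.8, 26.3 and 28.5 CPM. ACTA2, smooth muscle actin, the usual mark of a myofibroblast, did not pass, at 8.89, 9.45 and 8.43 CPM in vehicle and 9.15, 10.1 and 12.05 CPM with TGFβ (log2 0.22, adjusted p = 0.133, edgeR). It was named after its values were seen. Among 23 integrin subunits 11 rose and 5 fell. ITGA11, a collagen receptor subunit, went from 1.89, 0.856 and 1.11 to 81.3, 88.9 and 111 CPM, the largest rise of an integrin that met the naming rule. ITGB3 rose by 1.97 (SE 0.077).

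Transcription factors of epithelial and mesenchymal state moved in opposite directions. Of 15 transcription factors of the mesenchymal programme 11 rose and 1 fell. SNAI1, a repressor of E-cadherin, rose from 4.65, 4.94 and 3.52 to 46.3, 47.96 and 50.7 CPM and its relative SNAI2 from 7.29, 8.28 and 4.86 to 56.9, 52.8 and 49.7 CPM. The 1 that fell was TWIST1, at 17.05, 20.4 and 19.6 CPM against 32.9, 31.9 and 28.4 in vehicle. Of 20 epithelial transcription and splicing factors 12 fell and 2 rose. The ETS factor EHF fell by 2.27 (SE 0.29) and TP63 by 2.76 (SE 0.31). Of the 2 that rose, HNF4A, a factor of liver and gut epithelium, went from 0.264, 0.280 and 0.446 to 6.18, 4.83 and 9.41 CPM. FOXA1 and FOXA2, forkhead factors of the same organs, fell by 1.49 and 0.93.

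Of 23 tight junction and polarity genes 11 fell and 3 rose. TJP3, a scaffold of the tight junction, fell from 5.85, 5.98 and 5.16 to 0.705, 0.753 and 0.618 CPM, and LLGL2 and CRB3, polarity proteins, by 1.39 and 1.36. CLDN4, a claudin of tight epithelium, went against them, from 6.22, 4.79 and 5.54 to 20.6, 20.6 and 19.3 CPM. The adherens junction and desmosome list had the opposite balance, with 10 of 21 higher and 5 lower. CDH1, E-cadherin, was at 77.9, 79.000 and 61.7 CPM in vehicle and 10.5, 10.7 and 12.01 CPM with TGFβ, and CDH2, N-cadherin, at 199, 201 and 209.7 and then 451, 460.3 and 472 CPM. Per transcript length CDH2 was already above CDH1 in vehicle, at 83.1 ± 6.43 against 41.9 ± 3.75 TPM (SD, n = 3). PKP1 and PKP2, plakophilins that anchor keratin at desmosomes, moved apart. PKP1 rose from 2.901, 3.21 and 2.603 to 119, 116 and 145 CPM (log2 5.45, SE 0.18), and PKP2 fell from 52.6, 55.01 and 40.99 to 22.9, 21.6 and 15.8 CPM. NECTIN4, an adhesion protein, rose by 2.94 (SE 0.20), and EPCAM, an epithelial adhesion protein, fell by 1.20 (SE 0.16).

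Keratins are the intermediate filament proteins of epithelium. Of 17 tested, 10 rose and 2 fell. KRT17, a keratin of basal and wounded epithelium, rose from 55.4, 47.8 and 23.01 to 642, 604 and 559 CPM, and KRT16 from 0.527, 0.708 and 0.259 to 12.9, 12.9 and 13.4 CPM. KRT14 was at 0, 0 and 0.101 CPM in vehicle and 2.198, 2.23 and 3.05 CPM with TGFβ. These 3 have near-identical pseudogenes and relatives, so their counts are uncertain. KRT7, a keratin of ducts, was at 706, 677 and 275 CPM in vehicle and 965, 999.9 and 850.5 CPM with TGFβ. Its rise of 0.76 became 0.44 without Vehicle replicate 3, and its call was lost without TGFb replicate 1 or 2. KRT19, the other duct keratin, fell by 0.57 (SE 0.18) with overlapping groups, and lost its call without Vehicle replicate 1 or 2 or TGFb replicate 1 or 2. Chains of the laminin that ties epithelial cells to the basement membrane went both ways, with LAMB3 higher by 1.17 (SE 0.12) and LAMA3 lower by 0.47 (SE 0.067). Keratinocyte markers as a list had 7 of 8 tested genes higher, while TP63, the factor that defines basal keratinocytes, was the 1 that fell, to 0.436, 0.329 and 0.182 CPM.

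Genes of bile duct function were mixed. Of 19 tested for duct transport and the secretin response 9 rose and 2 fell. The water channels were exchanged: AQP1 rose from 0.372, 0.379 and 0.403 to 7.47, 8.205 and 8.59 CPM. AQP3 fell from 17.2, 14.95 and 11.3 to 3.61, 4.801 and 4.11 CPM. P2RY2, a receptor for ATP that drives secretion, rose from 8.08, 8.98 and 5.44 to 45.96, 49.9 and 51.1 CPM. SOX9, a factor of duct cells, fell by 0.84 (SE 0.12).

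Genes of secreted defence proteins fell more often than they rose. Of 15 mucus and trefoil genes 10 fell and none rose (6 of those left under the stricter filter fell). MUC6, a gel-forming mucin, was at 173, 171 and 97.7 CPM in vehicle and 1.71, 2.02 and 1.62 CPM with TGFβ, which was the largest fall of any protein coding gene that met the naming rule (log2 -6.36, SE 0.29). MUC5AC fell from 3.16, 2.24 and 0.877 to 0.436, 0.377 and 0.236 CPM. AGR2, which folds mucins, went from 11.98, 12.5 and 7.997 to 0.805, 0.439 and 0.781 CPM. Of 20 complement and acute phase genes 14 fell and 3 rose, with a median of -0.96. SAA1 and SAA2, near-identical genes whose reads may be shared, went from 256, 255 and 182 to 60.9, 54.7 and 63.7 and from 46.5, 45.9 and 28.2 to 6.96, 5.55 and 5.31 CPM. FGA and FGG, chains of fibrinogen, fell by 4.04 and 2.53, and LCN2, which binds bacterial iron carriers, by 2.91 (SE 0.19). The 3 that rose included SERPINA1, which inhibits neutrophil elastase, by 0.46.

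Of 15 tested CC and CXC chemokines 7 fell, all at least 2-fold, and none rose. CXCL5, which draws neutrophils, fell from 34.1, 33.4 and 30.3 to 8.99, 8.08 and 7.304 CPM. Of the factors that relay cytokine signals, 9 of 15 IRF and STAT factors fell and 1 rose, with STAT2 lower by 0.54 (SE 0.067) and STAT4 by 1.77 (SE 0.21). The receptor families went both ways. Of 17 tested TNF receptors 8 rose and 4 fell, and of 28 interleukin receptors 9 rose and 8 fell (5 without Vehicle replicate 2 or TGFb replicate 3). IL1RAP, a coreceptor for IL1, rose by 1.63 (SE 0.097) and TNFRSF9 by 1.55 (SE 0.24). TNFRSF1B, a receptor for TNF, went from 31.1, 30.9 and 22.5 to 4.13, 3.59 and 2.94 CPM, IL6R from 47.8, 50.97 and 35.8 to 8.63, 9.49 and 6.47 CPM. CD14, the coreceptor for bacterial lipopolysaccharide, went from 34.3, 31.5 and 27.9 to 5.24, 5.22 and 5.96 CPM. In the NFκB response list 8 of 22 rose and 8 fell, of which 1 and 7 were at least 2-fold. Within it BIRC3, an inhibitor of cell death, fell from 110.0, 129.9 and 109 to 30.4, 27.4 and 25.4 CPM, while the factor gene NFKB1 rose by 0.60 (SE 0.053). Of 19 antigen presentation genes 7 fell and none rose, including CIITA, the switch of class II genes, by 1.73 (SE 0.12).

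**Figure D2:**
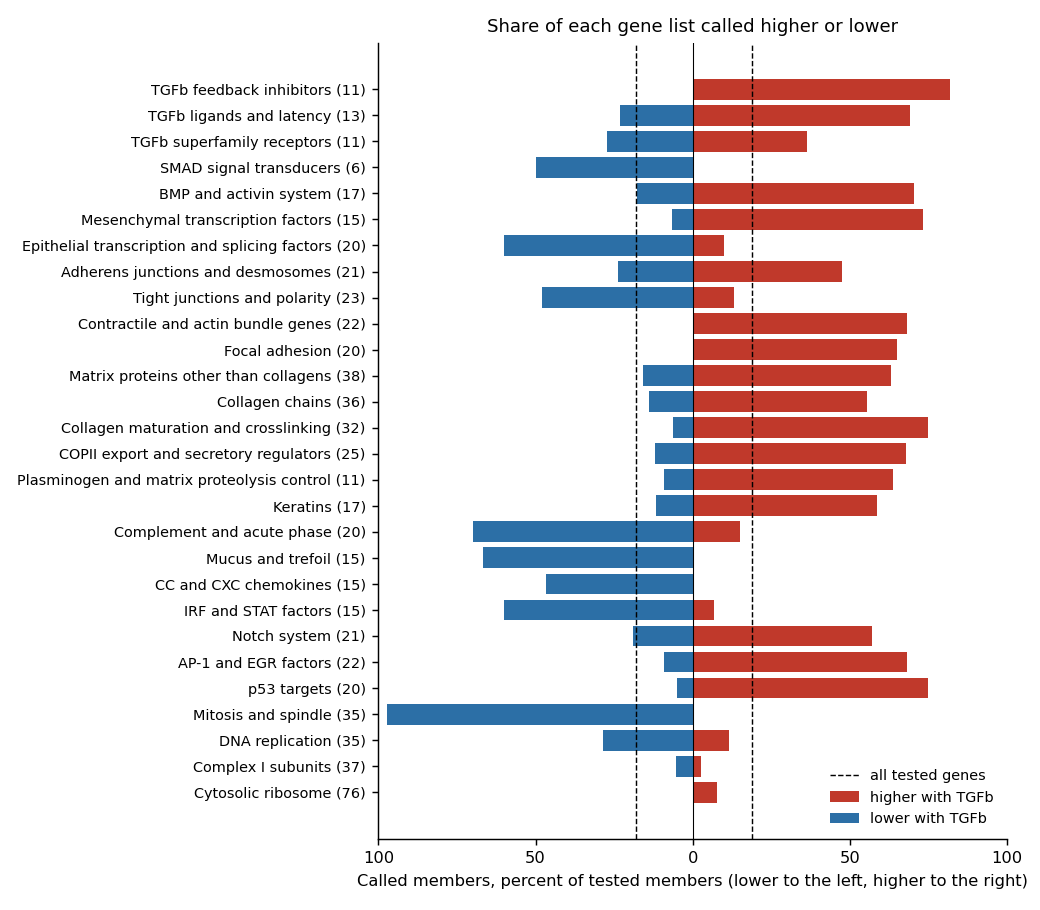
Percent of the tested members of 28 gene lists that were called higher (right) or lower (left) with TGFb, with the number of tested members in brackets and dashed lines at the shares over all tested genes, 18.9% and 18.1%. Mitosis and spindle genes have the largest lower share, 34 of 35, and feedback inhibitors the largest higher share, 9 of 11.

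Cytokines and growth factors that act on neighbouring cells rose in part. IL11, a cytokine of the IL6 family, rose from 7.29, 7.11 and 3.29 to 189, 193 and 188 CPM. LIF rose by 1.19 (SE 0.16). Of 23 PDGF, FGF and VEGF genes 12 rose and 4 fell. PDGFB, which drives the growth of fibroblasts and pericytes, rose from 24.5, 22.2 and 17.2 to 236, 255 and 254 CPM, and its receptor gene PDGFRB from 50.8, 47.9 and 44.3 to 185, 200.1 and 229 CPM. VEGFA, which makes vessels grow, rose from 124, 124 and 76.5 to 587, 584 and 541 CPM. Ligands of the EGF receptor family were exchanged. TGFA rose from 9.54, 11.4 and 12.2 to 40.4, 42.01 and 51.2 CPM and NRG1 from 8.61, 8.74 and 7.48 to 26.3, 26.5 and 30.2 CPM. NRG2 fell from 12.9, 12.3 and 12.01 to 0.956, 0.973 and 0.690 CPM and EREG from 23.7, 24.3 and 18.3 to 7.87, 7.59 and 9.27 CPM.

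Wnt genes were exchanged too. WNT5B rose from 8.44, 8.81 and 6.59 to 67.6, 68.9 and 64.4 CPM. WNT4 fell from 10.1, 9.95 and 4.905 to 0.805, 0.722 and 0.472 CPM. NKD1 and NKD2, paired inhibitors of Wnt signalling, went opposite ways. NKD1 was at 0.279, 0.329 and 0.273 CPM in vehicle and 23.04, 20.8 and 27.8 CPM with TGFβ (log2 6.34, SE 0.17), and NKD2 at 28.1, 26.4 and 24.04 and 5.37, 7.14 and 5.63 CPM (log2 -2.11, SE 0.13). Of 26 Wnt receptors and feedback genes 5 rose and 12 fell. Of 21 Notch genes 12 rose and 4 fell. JAG1, a ligand, was at 64.5, 65.7 and 64.5 CPM in vehicle and 184, 186 and 187 CPM with TGFβ, while the ligand JAG2 and the receptor NOTCH1 fell by 0.39 and 0.54. The Notch target HEYL rose from 0.279, 0.247 and 0.273 to 6.18, 7.499 and 9.85 CPM and HEY1 by 2.69 (SE 0.18). In the Hedgehog list GLI1 and GLI2, activating factors, rose by 1.06 and 1.58, and PTCH1, the receptor, fell by 0.51 (SE 0.077). Guidance genes followed with SEMA7A, a membrane semaphorin, up from 13.3, 11.9 and 5.998 to 245, 255 and 214 CPM, SEMA6D lower by 2.18, and the receptor kinase gene EPHB2 up from 35.9, 35.2 and 29.5 to 227, 238 and 230.2 CPM.

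**Figure D3:**
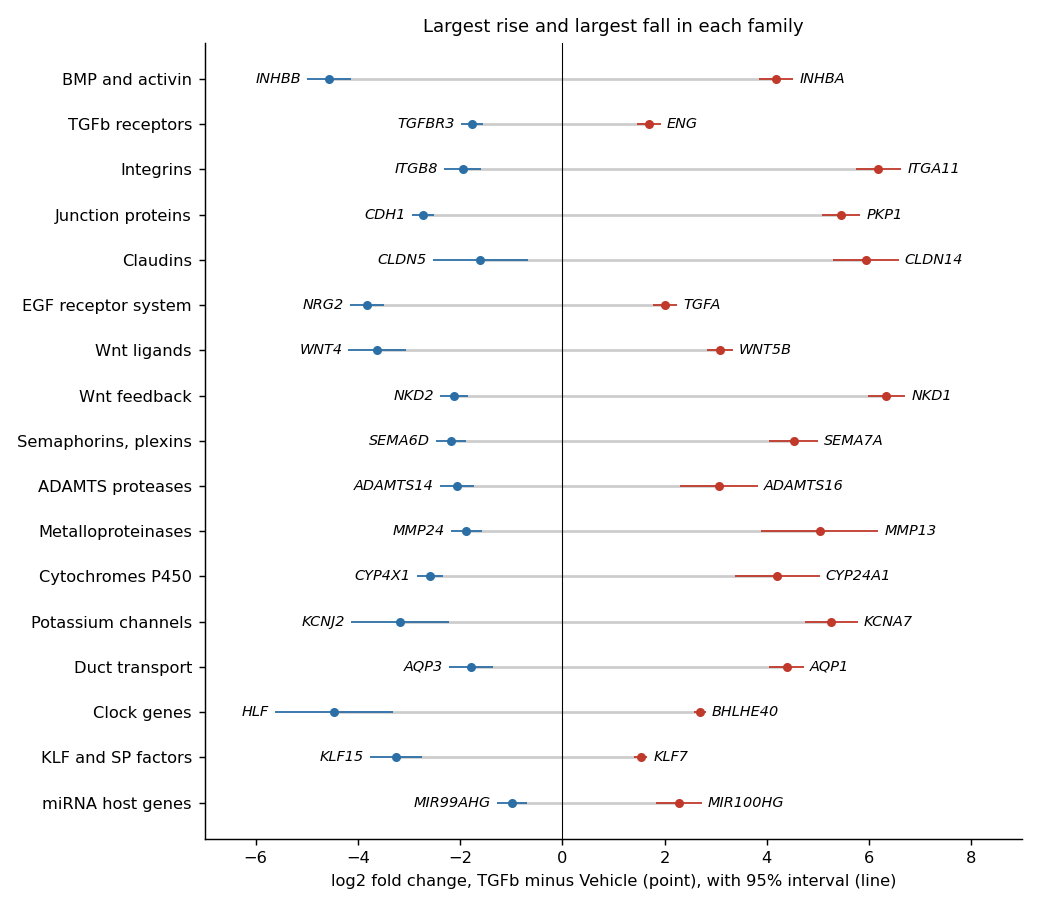
Log2 fold change (point) with its 95% interval (line) of the gene with the largest rise and of that with the largest fall among the genes that met the naming rule, in 17 families or lists. All 34 intervals exclude 0, which follows from the naming rule, since it asked for a call. Of the 17 pairs INHBA and INHBB lie furthest apart, at 4.17 and -4.56.

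Of 22 AP-1 and EGR factors 15 rose and 2 fell. JUNB, an AP-1 subunit, rose from 70.999, 62.4 and 58.9 to 302, 324 and 338 CPM. MAF was near the detection limit in vehicle, at 0.0155, 0.0329 and 0 CPM, and reached 4.11, 3.97 and 3.02 CPM. FOS was among the 2 that fell, by 0.51 (SE 0.16), a call lost without TGFb replicate 1 or 2 or Vehicle replicate 2. FOXS1, a forkhead factor, rose from 1.97, 1.56 and 1.02 to 38.5, 40.2 and 44.4 CPM. Of 19 KLF and SP factors 10 fell and 3 rose. KLF10, an early TGFβ target, rose by 1.09 (SE 0.055), KLF7 rose by 1.53 (SE 0.061), and KLF15, a factor of fasting metabolism, fell from 6.701, 6.14 and 4.67 to 0.688, 0.596 and 0.545 CPM. BHLHE40, a repressor within the clock, was at 60.8, 61.1 and 56.2 CPM in vehicle and 389, 387 and 376 CPM with TGFβ. The clock output factors DBP and HLF fell by 1.83 (SE 0.16) and 4.46 (SE 0.54), and BMAL1, a core activator, rose by 1.16 (SE 0.08).

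The cell cycle lists moved unequally. CDKN2B and CDKN1A, inhibitors of the kinases that open S phase, rose from 52.99, 45.9 and 34.996 to 193, 193 and 191 CPM and from 206, 196 and 149 to 735, 727 and 842 CPM. CDKN2C, another inhibitor, fell by 1.10 (SE 0.11), and E2F2, an activator of S phase genes, from 26.3, 27.6 and 23.7 to 7.400, 7.201 and 7.29 CPM. Of 35 mitosis and spindle genes 34 fell and none rose, none of them 2-fold, with a median of -0.42. The falls ran from 0.24 (MAD2L1) to 0.75 (CDC25B). BUB3, a checkpoint protein, was the 1 that did not pass, at 147, 145 and 147 CPM in vehicle and 145, 142 and 133 CPM with TGFβ (log2 -0.07, adjusted p = 0.328, edgeR). CDC25B, a phosphatase that starts mitosis, went from 496, 469.9 and 461 to 285, 294 and 268 CPM. BUB1, a checkpoint kinase, went from 191, 199.7 and 247 to 132, 129 and 120.1 CPM. For all 35 genes the 3 treated libraries were below the 3 controls, where 46.6% of all tested genes did not overlap in either direction.

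The DNA replication list, of equal size, had fewer members that passed. Of 35 genes 10 fell and 4 rose, with a median of -0.08. Leaving out Vehicle replicate 2 or TGFb replicate 2 left 6 and 5 lower, and leaving out Vehicle replicate 1, TGFb replicate 1 or TGFb replicate 3 left 2 higher. MCM2, part of the helicase, fell by 0.32 (SE 0.054) and CDC6, which loads it, rose by 0.22 (SE 0.056). Of 21 genes of repair by recombination 13 fell and none rose, among them FANCD2 by 0.52 (SE 0.055) and BRCA1 by 0.33 (SE 0.061). Of 20 p53 targets 15 rose and 1 fell, with DDB2, a sensor of damaged DNA, up from 26.5, 24.9 and 24.2 to 76.5, 75.98 and 85.8 CPM. The 1 that fell was the death receptor gene FAS, by 0.53 (SE 0.08).

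**Figure D4:**
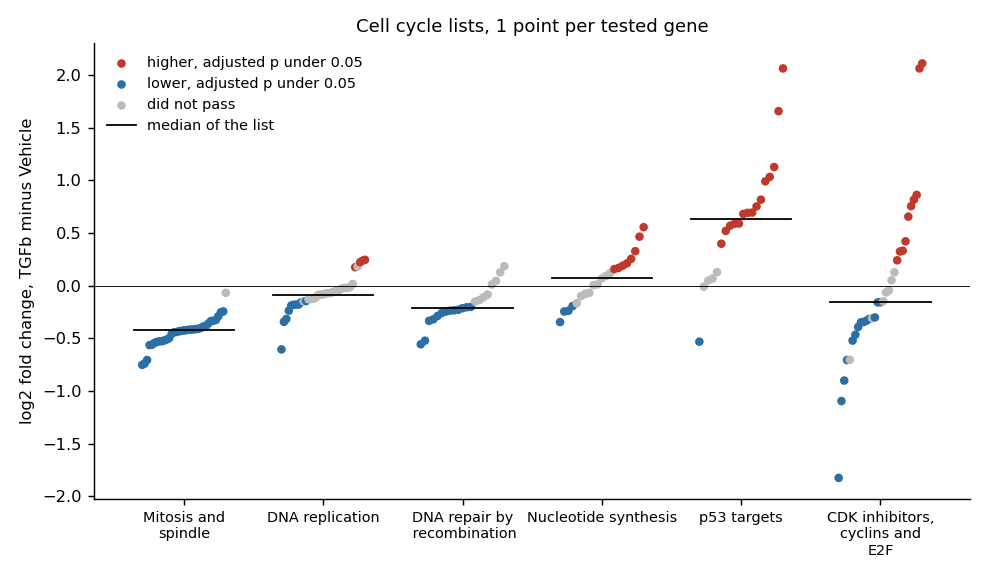
Log2 fold change, TGFb minus Vehicle, of each tested gene of 6 cell cycle lists, ordered within a list from lowest to highest, with the median as a black line and colour for genes with an adjusted p under 0.05. Of 35 mitosis genes 34 lie below 0 and passed (median -0.42), while DNA replication genes sit around a median of -0.08.

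The promoters of the mitosis genes are shown because that list moved together. Many cell cycle genes carry a CCAAT box and a cell cycle genes homology region (TTTGAA) just before their start, elements known for late cell cycle expression. RefSeq promoters (build GRCh38.p14, 250 bases upstream of the start) were matched for 29 of 35 mitosis genes and 32 of 35 replication genes. TTTGAA on either strand was in 15 of 29 mitosis promoters (51.7%), in none of 32 replication promoters, and in 13.6% of all 27305 RefSeq promoters. CCAAT on either strand was in 69.0% of the mitosis, 56.3% of the replication and 33.0% of all promoters, and both motifs together in 12 of 29, none of 32 and 4.85%. Both lists have promoters richer in G and C than the median of all (63.2 and 65.6% against 58.0%). The 4 mitosis genes with the largest falls among those with both motifs within 120 bases of the start are printed, 5′ to 3′ on the gene's strand up to the base before the start, with the motifs in capitals (ATTGG and TTCAAA are the reverse complements). In CDCA8 the last 2 matches overlap. A match describes the letters and was not tested as a binding site.
KIF11 (chr10:92593010-92593129, plus strand): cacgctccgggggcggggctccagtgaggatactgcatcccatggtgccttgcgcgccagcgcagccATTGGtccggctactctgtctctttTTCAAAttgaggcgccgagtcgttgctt
CDCA8 (chr1:37692396-37692515, plus strand): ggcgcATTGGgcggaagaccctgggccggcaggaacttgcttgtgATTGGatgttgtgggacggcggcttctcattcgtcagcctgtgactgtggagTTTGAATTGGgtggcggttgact
INCENP (chr11:62123891-62124010, plus strand): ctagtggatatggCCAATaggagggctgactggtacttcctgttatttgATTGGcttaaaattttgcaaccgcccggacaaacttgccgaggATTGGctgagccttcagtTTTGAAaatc
PRC1 (chr15:90994536-90994655, minus strand): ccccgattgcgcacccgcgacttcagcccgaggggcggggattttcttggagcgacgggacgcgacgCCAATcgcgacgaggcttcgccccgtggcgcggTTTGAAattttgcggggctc
KIF11, a motor that separates the spindle poles, fell by 0.53, CDCA8 and INCENP, partners in the complex that corrects chromosome attachment, by 0.52 and 0.43, and PRC1, which bundles the central spindle, by 0.42. CDC25B, with the largest fall of the list, had neither motif in its 250 bases. Next in size among the matched promoters were BUB1 (log2 -0.74), SPC24 (-0.71), KIF20A (-0.56) and NUF2 (-0.56). BUB1, SPC24 and KIF20A had CCAAT but no TTTGAA, and NUF2 had neither. Whether the motifs go with the size of the fall was not tested.

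Metabolic genes moved both ways. MLXIPL, a factor that turns on fat synthesis in response to glucose, fell from 128, 119 and 129.9 to 11.4, 13.6 and 9.12 CPM. ACSS1, a mitochondrial acetyl-CoA synthetase, went from 28.3, 30.7 and 24.04 to 2.37, 2.64 and 1.76 CPM. SCD, the desaturase of fatty acids, rose from 499, 530.1 and 380.5 to 1018, 1046 and 1039 CPM. Of 26 cytochromes P450 10 fell and 3 rose. CYP1B1, an enzyme of xenobiotics and steroids, fell from 215, 225 and 199 to 57.3, 58.8 and 76.5 CPM. CYP24A1, which inactivates vitamin D, rose from 7.46, 6.79 and 1.22 to 101, 105.3 and 76.8 CPM, with Vehicle replicate 3 the lowest library. Its activator VDR, the vitamin D receptor, rose by 1.29 (SE 0.16). Of 16 aldehyde dehydrogenases 9 fell and 3 rose, ALDH3B1 from 83.4, 76.4 and 57.7 to 17.8, 17.6 and 13.2 CPM. Among peroxisome genes 11 of 26 fell and 4 rose (2 without TGFb replicate 3), with the oxidases ACOX2 and ACOX3 at -3.63 and 1.80.

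In several large complexes few genes passed. Of 37 complex I subunits 1 rose and 2 fell, with 0 to 2 higher and 0 to 5 lower over the other settings. NDUFB9, which rose, and NDUFA2 and NDUFV3, which fell, each lost the call in some of them. Of 76 cytosolic ribosomal proteins 6 rose and none fell (3 rose without TGFb replicate 2 or 3), against 37.0% of all tested genes in either direction. None of these was 2-fold. The proteasome had a larger share than these. Of 37 subunits 13 rose and 2 fell, 40.5% against 37.0% of all tested genes and 45.6% of protein coding genes. The share that rose was 35.1%, against 18.9% of all tested genes and 30.7% of those over 100 CPM in vehicle. Levels were not matched, so these shares do not set the proteasome apart from other abundant genes. PSMD2, a base subunit, rose from 429, 425 and 424 to 832, 781 and 752 CPM, and the 2 that fell were PSMB8 by 0.34 and PSMB10 by 0.30, catalytic subunits of the immunoproteasome. PSMB10 lost its call under 6 other settings, among them leaving out any 1 library but Vehicle replicate 3 and TGFb replicate 2. HSPA5, the main chaperone of the endoplasmic reticulum, rose from 1037, 1141 and 748 to 2238, 2237 and 2345 CPM.

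Genes that host microRNAs were among the noncoding RNAs that moved. Of 36 tested 17 rose and 5 fell, with a median of 0.31. The table counts the host transcripts, and mature microRNAs were not measured. MIR100HG rose from 4.99, 5.02 and 2.32 to 21.6, 18.2 and 19.7 CPM. MIR99AHG fell from 5.93, 6.54 and 6.59 to 2.903, 2.71 and 4.02 CPM. Within the spans of these and of MIR29B2CHG, on their strand, RefSeq (GRCh38.p14) places the following mature microRNAs, printed 5′ to 3′ with the seed (bases 2 to 8) in capitals, because the first 2 hosts moved apart while their seeds are shared.
hsa-miR-100-5p in MIR100HG (chr11:122152275-122152296, minus strand): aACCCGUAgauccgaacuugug
hsa-miR-99a-5p in MIR99AHG (chr21:16539101-16539122, plus strand): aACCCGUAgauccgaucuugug
hsa-let-7a-5p in MIR100HG (chr11:122146568-122146589, minus strand): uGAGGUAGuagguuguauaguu
hsa-let-7c-5p in MIR99AHG (chr21:16539838-16539859, plus strand): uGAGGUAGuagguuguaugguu
hsa-miR-29b-3p in MIR29B2CHG (chr1:207802450-207802472, minus strand): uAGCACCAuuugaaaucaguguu
hsa-miR-29c-3p in MIR29B2CHG (chr1:207801865-207801886, minus strand): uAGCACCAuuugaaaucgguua
The first pair shares the seed ACCCGUA and the second pair GAGGUAG, of the let-7 family, and the last pair AGCACCA. MIR29B2CHG, host of the miR-29 family, which is known for targeting collagen messages, fell from 5.91, 6.604 and 5.98 to 3.32, 3.45 and 3.797 CPM. MIR23AHG rose from 16.3, 14.5 and 14.9 to 48.8, 48.7 and 58.2 CPM and MIR193BHG by 1.91 (SE 0.13). Of 4111 tested lncRNA genes 23.1% passed, against 45.6% of 14568 protein coding genes. At least 2-fold, 287 lncRNA genes were higher and 256 lower, and 934 and 643 protein coding genes. Passing went with level: of genes at 0.1 to 1 CPM in vehicle 8.14% were higher and 7.81% lower, and at 10 to 100 CPM 24.1% and 24.0%. Levels were not matched, so whether lncRNA genes respond less was not tested.

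A further group had next to no counts in vehicle. Of 551 tested genes with a vehicle mean under 0.1 CPM, 279 were higher and none lower, but genes this low in vehicle could pass the filter only through other groups, so the count supports nothing. CGB8, of the chorionic gonadotropin β cluster, had no count in vehicle and 6.93, 7.04 and 9.21 CPM with TGFβ, at least 167-fold higher than a floor of 3 counts per library (0.0464 CPM). Its neighbours are near-identical, so the assignment of reads is uncertain. KANK4, of a family that links adhesions to microtubules, rose from 0.0620, 0.0329 and 0.0863 to 26.7, 26.5 and 29.5 CPM. CHRNA9, an acetylcholine receptor subunit, went from 0.0620, 0.0988 and 0.0288 to 9.95, 10.997 and 11.97 CPM.

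The response was also measured between the other 2 groups, TGFβ with Aramchol at 30 µM against Aramchol alone. Both contrasts came from 1 fit of all 12 libraries with a shared filter and spread, so their calls are not independent. In the Aramchol contrast 6514 genes passed (30.2%), and 5694 of them passed in the same direction. That is 71.4% of the TGFβ genes and 87.4% of those found with Aramchol. A single gene, the pseudogene FAM131C2P, passed in opposite directions, and it was named after its values were seen. Of the 1321 genes at least 2-fold higher 1144 were also higher there, and of the 1015 at least 2-fold lower 741 were also lower. For INHBA and INHBB the log2 changes there were 3.15 and -3.55, for NKD1 and NKD2 5.72 and -1.71, for MUC6 -5.62 and for MIR100HG and MIR99AHG 1.77 and -0.94. All of these were smaller in size than without Aramchol, but the genes were named for the size of their change without it. A test of the difference between both responses passed for 3 genes (0.0139%), at adjusted p under 0.05. An unadjusted p under 0.05 was found for 1137 of 21567 genes. The difference carries the error of both responses, with 3 libraries a group, so a gene that did not pass may still respond differently.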

How the data were processed

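The authors deposited 1 table of raw read counts per gene for 12 RNA-seq libraries of H69 cells, made by a 2S Plus DNA library kit per the labels' protocols. STAR 2.7.9a, featureCounts of Subread and DESeq2 are named in the submitters' processing notes. Neither the strandedness used in counting nor the release of the gene annotation is stated in these sources (not given in the sources used here), which leaves genes that overlap another gene uncertain.

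From the counts, genes were filtered with filterByExpr and scaled by TMM. All 12 libraries were fitted with 1 mean per group in edgeR 4.0.16 (quasi-likelihood test, Benjamini-Hochberg adjustment, R 4.3.3), so that all groups share 1 estimate of the spread (common biological coefficient of variation 8.90%). TPM were computed from counts and the gene lengths in the table. The test was checked on simulated counts for TGFβ against vehicle (20845 genes). Of 50 genes changed 1.5-fold 52% were called, of 50 changed 2-fold 66% and of 50 changed 4-fold 90%, with 5 false calls. Only 50 genes were changed at each size, a far smaller share than the 37.0% that passed in the data. The adjustment of p depends on that share, so these rates may not hold for the data.

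The members and gene lists were chosen with earlier results of these data known. For most named genes the rule asked for a call and no overlap. These are the 15 largest rises and 15 largest falls with at least 5 CPM and the 5 largest lncRNA changes in each direction. Up to 3 in each direction per list with at least 1 CPM were added by the same rule. Overlap was allowed for the 10 largest gains and 10 largest losses in TPM and the 3 largest differences between responses, all among called genes. A fixed set (SMAD4 and KRT19 among them) needed neither a call nor a lack of overlap. MAD2L1, KIF11, CDCA8, INCENP and PRC1 were named after their values were seen. The patterns for integrins, KLF and SP factors, S100 proteins and heat shock genes were narrowed afterwards to drop symbols of other genes.

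As alternatives the scaling was changed to RLE or to upper quartile, the filter was dropped or tightened (a mean of 1 CPM and 10 counts or more in 3 libraries), and fits were run with fewer libraries, a replicate block, a term for libraries numbered 3 and DESeq2 1.42.0. RefSeq promoters matched only 72.2 and 71.5% of genes at least 2-fold higher and lower, so a motif check of those classes was void. Some genes are not reported here.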

Additional observations from a re-analysis of the deposited data

Results flagged for a closer look

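The response to TGFβ differed between cells without and with Aramchol for 3 genes, by the test of that difference in edgeR (4 groups of 3 libraries, adjusted over all tested genes). FN1, which encodes fibronectin, rose by 3.49 on the log2 scale without Aramchol and by 2.64 with it, a difference of 0.85 (adjusted p = 0.0205, edgeR). For SEC24D, the adaptor of the COPII coat, the rises were 0.94 and 0.43, a difference of 0.51 (adjusted p = 0.0233, edgeR). For JAG1, the Notch ligand, they were 1.52 and 1.05, a difference of 0.47 (adjusted p = 0.0205, edgeR). All 3 rose in both settings.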

How the results depend on the processing

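The number of genes that passed lay between 6833 (without TGFb replicate 3) and 7625 (without Vehicle replicate 3) when 1 library was left out, and between 7039 and 9160 under the other settings, against 7978. With the stricter filter, which tested 14388 genes, 760 were at least 2-fold higher and 510 at least 2-fold lower, in place of 1321 and 1015. Leaving out 1 library gave 1234 to 1387 and 924 to 1068. DESeq2 called 8083 genes and kept 97.8% of the calls. Upper quartile scaling gave 3601 higher and 4553 lower. No gene that passed changed sign under any of these settings in which it was tested.

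Numbers 1 and 2 were not shown to pair the libraries. Deviations of same-numbered Vehicle and TGFb libraries correlated at 0.007, 0.016 and 0.111, and only number 3 correlated best with its own number. By a chi-square of count differences per gene (larger means less alike), Vehicle replicate 3 was at 15.3 from Aramchol replicate 3. From Vehicle replicates 1 and 2 it was at 38.3 and 29.4. TGFb replicate 3 was at 23.9 from TGFb+Aramchol replicate 3, against 44.6 and 41.6 for replicates 1 and 2 of that group. It was nearest to TGFb replicate 2, at 11.1. A term for libraries numbered 3 gave 9160 calls. A replicate block gave 9090 calls, and 7365 in the fit of 6 libraries alone, an alternative chosen after seeing the data.

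Of 541 named genes that passed, 493 passed under every setting in which they were tested. The side with more calls stayed the same in 72 of 105 lists. The lists of superfamily receptors, NFκB response and clock genes were among those where it did not. Of 210 list counts, 58 moved more than 1.5-fold in some setting. In simulated counts of this comparison (20845 genes) 52% of 50 genes changed 1.5-fold were called and 90% of 50 changed 4-fold. Far fewer genes were changed there than passed in the data, so these rates may not hold here. A gene that did not pass may still differ.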

Other observations

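Small noncoding RNAs varied widely among the vehicle libraries. SNORD3A, a small nucleolar RNA, was at 8.10, 30.0 and 1.05 CPM in vehicle and 2.18, 4.597 and 1.22 CPM with TGFβ. RMRP, the RNA of an RNase, was at 6.67, 21.6 and 0.777 CPM and then 1.01, 3.91 and 1.13 CPM. RN7SL1, of the signal recognition particle, was at 14.4, 47.4 and 1.93 CPM and then 4.73, 8.74 and 3.32 CPM. The groups overlapped for all 3, Vehicle replicate 2 was the highest library of the 6 and Vehicle replicate 3 was the lowest of them for each, and their calls were lost under some of the other settings.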
